A study of Mus musculus with 6 samples.

Results

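The 9 genes described here encode 6 membrane-anchored metalloproteases of the ADAM family (Adam8, Adam9, Adam10, Adam15, Adam17 and Adam19) and 3 tissue inhibitors of metalloproteinases (Timp1, Timp2 and Timp3). They were taken by symbol from 52997 symbols of the count table, and all 9 were found. The genes were chosen by family, with the fold changes and adjusted p-values of the same comparison of ages already known, so their differences between the ages are given as a description, and the p-values printed are those of the fit across all genes and add no independent support. RNA was sequenced from CD4+ T cells of pooled lymph nodes, described by the series as naive, of 3 infant mice (10 days old) and 3 adult mice (7 weeks old). All mice carried the Foxp3-GFP reporter, which marks regulatory T cells, on the C57BL/6 background. Each library came from 1000 cells of 1 mouse that had been sorted in 2 rounds. Which surface markers set the sort gate is not stated in the labels.

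ADAM proteases sit in the cell membrane and cut the outer parts of other membrane proteins, which releases cytokines, adhesion molecules and receptor fragments from the cell surface. In T cells ADAM17 is known for releasing TNF, and ADAM10 for the cut that starts signalling by Notch receptors. TIMP proteins are small secreted inhibitors that block the active site of matrix metalloproteinases and, in part, of ADAM proteases. TIMP3 is the member known to inhibit ADAM17, and TIMP1 is known to inhibit ADAM10.

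The catalytic site of an active ADAM protease binds a zinc ion through histidines of a short conserved motif. The coding bases of that motif are shown because the motif marks the catalytically active members of the family and is a place where near-identical genes could share short reads, which here were 25 bases long. Capitals mark the codons of the 3 zinc-binding histidines, the catalytic glutamate and the conserved glycine, read 5′ to 3′ from the longest complete GENCODE M21 coding sequence of each gene.
Adam19: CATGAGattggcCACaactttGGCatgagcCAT
Adam8: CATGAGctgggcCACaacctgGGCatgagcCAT
Adam9: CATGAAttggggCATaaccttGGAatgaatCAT
Adam15: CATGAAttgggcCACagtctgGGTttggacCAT
Adam10: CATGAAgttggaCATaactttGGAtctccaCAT
Adam17: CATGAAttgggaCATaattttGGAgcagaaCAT
Adam19 and Adam8 had the most similar stretch, with 29 of 33 bases identical and 12 bases as the longest identical run. The other 14 pairs shared 19 to 26 bases. Over whole transcripts Adam19 shared 0 stretches of 25 bases with the other 8 genes, and the only such stretches among the 9 genes were the 22 that Adam15 and Adam17 had in common. Exact matches of 25 bases to more than 1 of these genes were thus limited to those 22 stretches.

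The libraries held 4115742 to 4739304 counts in infant and 3421253 to 4887371 in adult mice. Adult replicate 2 stood apart. It had a count at 36373 symbols, against 17992 to 21840 in the other 5 libraries, and over 10981 untested autosomal coding genes it held 1.85 counts per kb of exon, against 0.186 to 0.349 in the others. Values that rest on this library are given with and without it below. Of the 9 naive T cell markers all were tested, and Cd4 averaged 867 CPM (read counts scaled to library size with TMM factors) in infant and 979.9 CPM in adult libraries. Lef1 averaged 745 CPM in infant and 957 CPM in adult libraries (edgeR adjusted p = 0.0754), and DESeq2 called it lower. Of 12 effector memory markers 4 were tested and 0 were called with edgeR, DESeq2 or limma-voom. The 12 summed to 235 to 259 CPM in infant and 220 to 279 CPM in adult libraries. The 2 CD8 T cell markers summed to 32.0 to 41.8 CPM in infant and 31.3 to 36.5 CPM in adult libraries, mostly from Cd8b1. The 9 B cell markers summed to 703.5 to 804 CPM in infant and 711 to 833 CPM in adult libraries, nearly all from Ighm (a mean of 716 CPM in infant and 769.7 CPM in adult libraries). In such bulk libraries a change in the number of expressing cells and a change in RNA per cell cannot be told apart.

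Adam19 was the 1 gene of the family whose RNA was clearly higher in infant T cells. The gene, also known as meltrin beta, encodes a protease that cuts neuregulins and is needed for heart development in mice. It lies on the plus strand at chr11:46055992-46147343 (mm10). Adam19 had 139, 138 and 141 CPM in the infant libraries, against 17.5, 29.5 and 15.4 CPM in adult replicates 1, 2 and 3. All 3 infant values lay within a narrow band, far above the highest adult value, which came from adult replicate 2. The fitted difference was 6.78-fold (95% interval 5.03 to 9.13), a log2 fold change of 2.76 ± 0.20 (SE) with an edgeR adjusted p of 2.49e-06 over all genes tested. Of 11681 genes tested, 3.64% were called in either direction, 1.52% higher and 2.11% lower in infant cells, at an adjusted p under 0.05. Among 7 tested ADAM and TIMP genes 1 was called higher and 0 lower with edgeR, and Adam19 was also the only one under DESeq2, under limma-voom and at an unadjusted p under 0.05. Adam19 was also the 1 gene of the 9 whose infant and adult values did not overlap, which held for 22.8% of all genes tested. Nothing is read from these counts, since the genes were picked with these results in view.

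**Figure D1:**
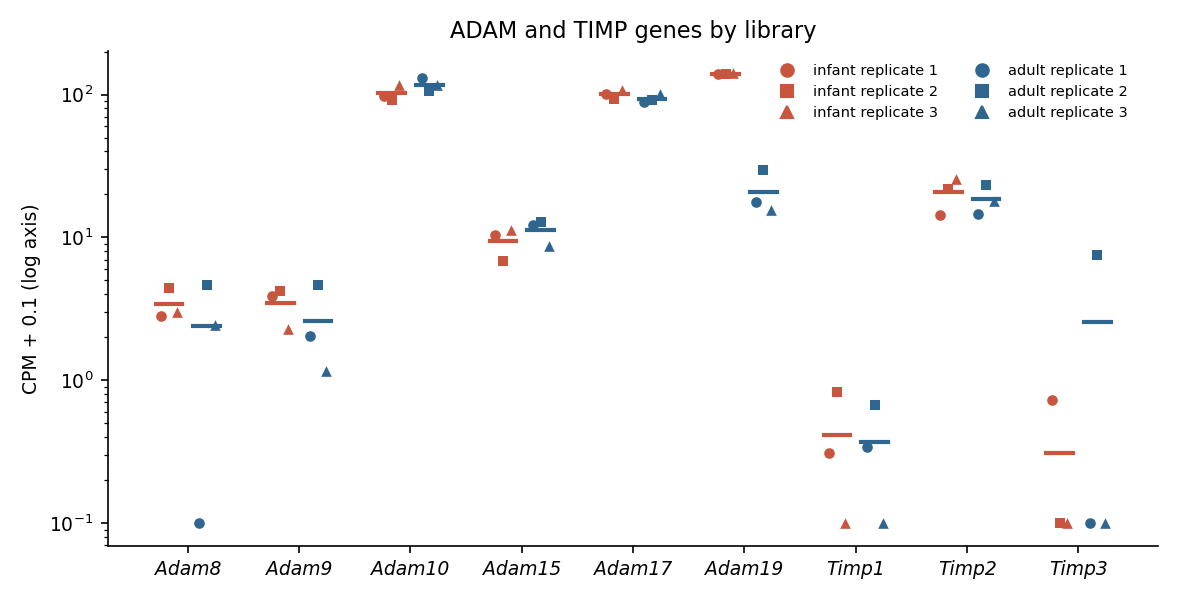
CPM plus 0.1 on a log axis for each of the 9 genes, with infant libraries in red to the left of adult libraries in blue, 1 symbol per replicate and a bar at the mean of each group. Adam19 lies between 138 and 141 CPM in infant libraries, against 15.4 to 29.5 CPM in adult libraries, while the 2 groups overlap in each of the other genes.

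Adult replicate 2 moved the adult level of Adam19 but not the direction. It held 104 counts of Adam19, of which 13.2 would correspond to its density over untested genes, and adult replicates 1 and 3 held 72 each. Without it the log2 fold change was 3.09 ± 0.16 (edgeR adjusted p = 1.30e-07), and leaving out any other single library gave values down to 2.58 (adjusted p at most 2.86e-04). The antisense genes Gm16033 and Gm16034 share 718 of the 7115 exon bases of Adam19 (10.1%). Both had 0 counts in all 6 libraries. How reads over both strands were assigned is not stated in the labels.

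Some markers of other kinds of cell moved with age in the same libraries. Of 6 tested genes of cycling cells 4 were higher in infant libraries (edgeR adjusted p under 0.05). Of these 4, Mki67, Ccna2 and Nusap1 reached the level that the filter on low counts asks for in 3 infant libraries and 1 adult library. They thus entered the test through the group in which they are high, and their values are a description. Top2a reached that level in 3 libraries of each group. The summed level over 8 cycling genes was 77.3 to 172 CPM in infant and 10.4 to 36.7 CPM in adult libraries. By replicate 1, 2 and 3 the cycling sum was 77.3, 79.3 and 172 CPM in infant and 10.4, 36.7 and 13.9 CPM in adult libraries. Of the natural killer list 2 of 6 genes were tested and both, Klrd1 and Prf1, were lower with edgeR and DESeq2. With limma-voom 1 of the 2 was lower. The summed level over the 6 genes was 28.5 to 36.9 CPM in infant and 105 to 113 CPM in adult libraries. The defining natural killer receptor gene Ncr1 had 0 counts in every library. The summed level over 8 genes of regulatory T cells was 198 to 229 CPM in infant and 255 to 278 CPM in adult libraries. Of its 6 tested genes 0 were called with edgeR or limma-voom, 2 were lower at an unadjusted p under 0.05 and DESeq2 called Tnfrsf18 lower, while the defining gene Foxp3 averaged 7.61 CPM in infant and 5.60 CPM in adult libraries. The sum over 13 myeloid markers was 17.9 to 20.3 CPM in infant libraries, against 12.1, 40.3 and 6.84 CPM in adult replicates 1, 2 and 3. The part of these markers in the result for Adam19 was not tested.

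The promoter of Adam19 is shown because it belongs to the 1 gene of the group that was called. RefSeq lists 3 start sites for the gene, and the counts per gene do not show which was used. The window below, chr11:46055734-46056033 (GRCm38.p6, plus strand, RefSeq), belongs to the site nearest to the start of the GENCODE gene, 8 bases before it, and runs from 250 bases before the site to 50 bases after.
Adam19 promoter: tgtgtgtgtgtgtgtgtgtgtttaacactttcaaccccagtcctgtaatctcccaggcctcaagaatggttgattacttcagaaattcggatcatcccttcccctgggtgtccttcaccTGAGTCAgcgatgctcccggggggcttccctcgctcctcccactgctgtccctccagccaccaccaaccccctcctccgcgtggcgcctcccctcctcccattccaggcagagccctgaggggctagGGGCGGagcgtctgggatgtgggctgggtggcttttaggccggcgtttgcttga
Capitals mark the motifs found on either strand. TGACTCA, the sequence bound by AP-1 factors, was matched on the minus strand 131 bases before the start site, and 5.20% of 32851 RefSeq promoters of this length hold it. GGGCGG, bound by Sp1, began 4 bases before the start site and is held by 35.7% of those promoters. Neither motif was in the windows of the other 2 Adam19 start sites. The TATA box TATAAA, the E-box CACGTG, the Runx motif TGTGGT, the ETS motif CCGGAAGT and the NFAT motif TGGAAA, also searched on both strands, were not in the window shown, which held 11 CpG pairs against a median of 7. The window of the Adam19 start site at 46054502 held the E-box and the NFAT motif. That of the start site at 46127904 held the Runx motif. Of the RefSeq promoters, 7.15% hold the E-box, 21.4% the NFAT motif and 16.8% the Runx motif. Of the promoters of the 7 other genes in the RefSeq table, 0 held TGACTCA and 7 held GGGCGG. Adam9 is the 1 gene of the 9 with no entry there.

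Adam10 and Adam17, the major shedding proteases of lymphocytes, had nearly the same levels at both ages. Adam10 (chr9:70678997-70780229, plus strand, mm10) had 97.8, 91.9 and 117 CPM in infant libraries, against 130, 106 and 116 CPM in adult libraries. Its ranges overlapped, and the fold of infant over adult was 0.871 (95% interval 0.712 to 1.07, edgeR adjusted p = 0.508). Adam17 (chr12:21323509-21373632, minus strand) had 101, 93.6 and 107 CPM in infant libraries, against 88.5, 91.8 and 100.2 CPM in adult libraries. The ranges overlapped here too, with a fold of 1.07 (95% interval 0.891 to 1.29, edgeR adjusted p = 0.748). The intervals leave room for a fall of Adam10 to 0.712 of the adult level or a rise of Adam17 to 1.29 times that level, and both bounds lie far from the change of Adam19. Adam17 shares 311 of its 7154 exon bases (4.35%) with Iah1 on the other strand, and Iah1 had a log2 fold change of 0.16 ± 0.16 (edgeR adjusted p = 0.676).

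Adam15, a widely expressed protease, was far less abundant than those genes. Adam15 (chr3:89338542-89349996, minus strand) had 10.3, 6.77 and 11.1 CPM in infant libraries, against 12.1, 12.8 and 8.55 CPM in adult libraries, and its log2 fold change was −0.24 ± 0.33 (edgeR adjusted p = 0.782). The antisense gene 4731419I09Rik covers 20.6% of its exon bases and had at most 2 counts in any library. The libraries do not mark strand, so these counts do not show that the antisense gene is silent.

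Adam8 and Adam9 were scarce. Adam8, a protease best known from myeloid and activated cells (chr7:139978932-139992562, minus strand), had 13, 18 and 12 counts in infant replicates 1, 2 and 3, against 0, 16 and 11 counts in adult replicates 1, 2 and 3. The 0 in adult replicate 1 allows up to 0.727 CPM, for counting error only. The 16 counts of adult replicate 2 stand beside 8.60 that its density over untested genes would give. Adam8 reached the level that the filter on low counts asks for in 4 libraries, the 3 infant ones among them, so that infant libraries carried it through the filter. Its log2 fold change was 0.55 ± 0.80 (edgeR adjusted p = 0.793), 1.43 ± 0.89 without adult replicate 2 (0.455) and −0.037 ± 0.68 without adult replicate 1 (0.987). Adam9, a widely expressed protease (chr8:24949611-25016927, minus strand), had 18, 17 and 9 counts in infant libraries, against 8, 16 and 5 counts in adult libraries. Its log2 fold change was 0.44 ± 0.62 (edgeR adjusted p = 0.786) and 1.16 ± 0.67 without adult replicate 2 (0.418). The 95% intervals of the fold, 0.449 to 4.78 for Adam8 and 0.542 to 3.42 for Adam9, show that neither gene could be placed at this depth.

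Of the inhibitors only Timp2 had counts enough to be tested. Timp2 (chr11:118301069-118355740, minus strand), which binds matrix metalloproteinases and helps MMP14 to activate pro-MMP2, had 14.2, 21.8 and 25.6 CPM in infant libraries, against 14.5, 23.3 and 17.9 CPM in adult libraries. The groups overlapped almost fully, with a log2 fold change of 0.14 ± 0.27 (edgeR adjusted p = 0.852). Its sign turned without infant replicate 3 (−0.047 ± 0.30, adjusted p = 0.969) and without adult replicate 1, where the difference was nil to 2 decimals.

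Timp1 and Timp3 were at or near 0. Timp1 (chrX:20870166-20874735, plus strand) had 1, 3 and 0 counts in infant libraries, against 1, 2 and 0 counts in adult libraries. The 0 counts of infant replicate 3 and adult replicate 3 allow up to 0.725 and 0.641 CPM. Timp3 (chr10:86300372-86349506, plus strand), which binds to the extracellular matrix, had 3, 0 and 0 counts in infant libraries, against 0, 26 and 0 counts in adult libraries. The 26 counts came from adult replicate 2 alone, whose density over untested genes would give 15.1. Syn3, the gene in which Timp3 lies on the other strand and with which it shares 21.3% of its exon bases, had 45 counts in that library and at most 4 in any other. Among 9 stromal markers, of which 0 were tested, the summed level was 1.45 to 3.62 CPM in infant libraries, and in adult libraries it was 27.8 CPM in replicate 2 and at most 1.94 CPM in the others. Outside adult replicate 2 neither Timp1 nor Timp3 had more than 3 counts in a library, so no difference between the ages was detectable at this depth.

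**Figure D2:**
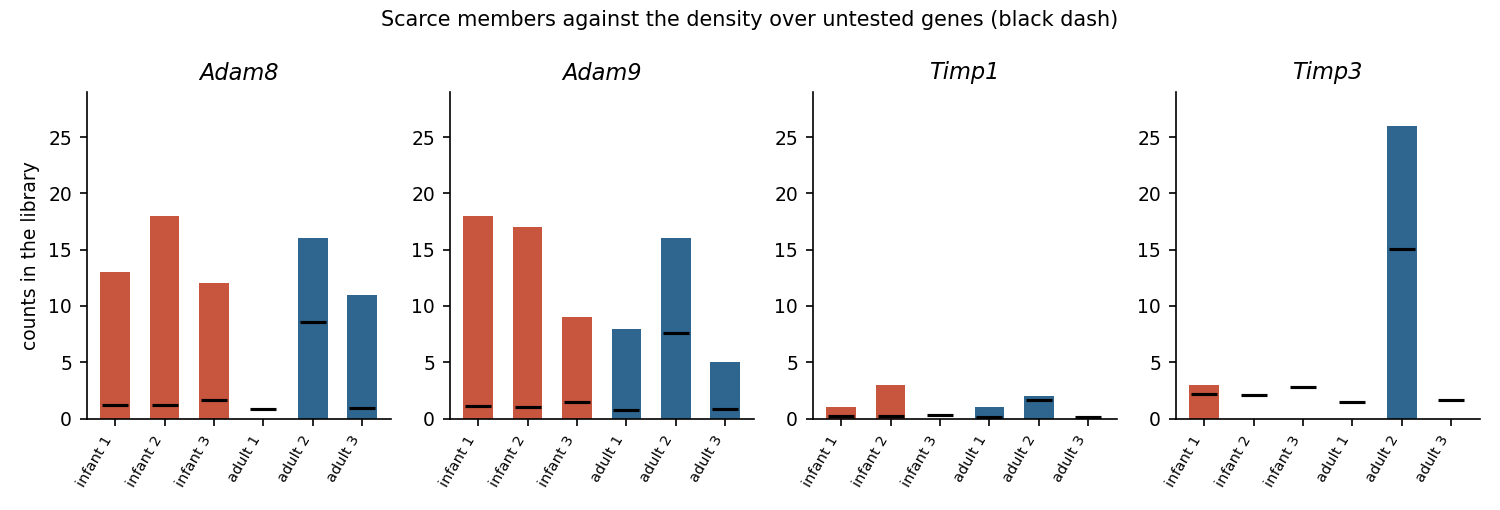
Counts of Adam8, Adam9, Timp1 and Timp3 in each library (bars, infant in red and adult in blue), with a black dash at the count that the library's density over untested autosomal coding genes would give for the exon length of the gene. In adult replicate 2 the dash stands at 8.60 for Adam8, 7.63 for Adam9 and 15.1 for Timp3, against bars of 16, 16 and 26 counts.

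Per length of annotated exon, Adam10 had the highest mean at both ages, and Adam19 stood near it in infant libraries only. The lengths include exon bases shared with genes on the other strand (20.6% for Adam15, 10.1% for Adam19 and 4.35% for Adam17). How reads in those bases were counted is not stated. Levels in CPM per kb of annotated exon in infant libraries were 20.8 ± 2.71 (mean ± SD, n = 3) for Adam10, 19.6 ± 0.193 for Adam19 and 14.0 ± 0.936 for Adam17. Adam10 and Adam19 did not differ beyond their spread there. In infant libraries Timp2 followed at 5.27 ± 1.48, Adam15 at 1.53 ± 0.374, Adam9 at 0.814 ± 0.251 and Adam8 at 0.717 ± 0.193. In adult libraries Adam10 led at 23.9 ± 2.45, followed by Adam17 at 13.1 ± 0.845, Timp2 at 4.77 ± 1.13, Adam19 at 2.92 ± 1.08 and Adam15 at 1.81 ± 0.371. In adult replicates 1, 2 and 3 Timp2 was at 3.73, 5.98 and 4.61, against 2.45, 4.15 and 2.16 for Adam19. Adam15 was at 1.97, 2.08 and 1.39, below Adam19 in each adult library. With the longest transcript as the length Adam15 was above Adam19 in adult replicate 1 (3.10 against 2.73). The gaps between these means did not exceed the sums of the SDs, and the highest Adam19 value came from adult replicate 2. Adam9 and Adam8 overlapped at both ages. With the longest annotated transcript as the length, the leading 3 genes of infant libraries were level, at 22.5 for Adam17, 22.3 for Adam10 and 21.8 for Adam19.

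Adam19 made up 34.1% ± 1.85 of the summed level per length of the 6 proteases in infant libraries and 6.83% ± 2.51 in adult libraries (SD, n = 3 each). With the longest transcript as the length these shares were 30.9% ± 1.71 in infant and 6.05% ± 2.21 in adult libraries. The ratio of Adam19 to Adam17 per length was 1.39, 1.48 and 1.32 in infant libraries, against 0.198, 0.324 and 0.154 in adult libraries. With the longest transcript as the length the ratio was 0.969, 1.03 and 0.921 in infant libraries, against 0.138, 0.225 and 0.107 in adult libraries, so which of these genes had the higher level per length in infant libraries turned with the length used. The summed level of all 6 proteases was 56.7, 54.2 and 61.6 CPM per kb in infant libraries, against 43.8, 42.8 and 41.9 CPM per kb in adult libraries. Without Adam19 the sum of the other 5 was 37.9 ± 3.56 CPM per kb in infant and 39.9 ± 1.35 CPM per kb in adult libraries, so that the groups were apart in the total and not in the remainder.

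**Figure D3:**
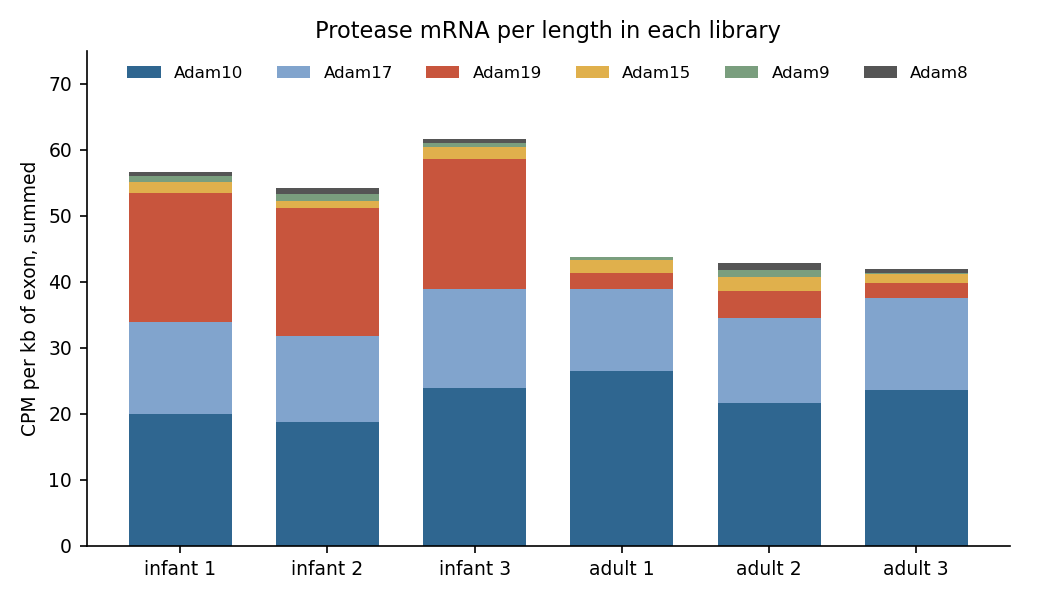
Stacked levels of the 6 proteases in each library in CPM per kb of annotated exon, infant libraries to the left of adult libraries. The segment of Adam19 (red) is 19.4 to 19.8 CPM per kb in infant libraries, against 2.16 to 4.15 in adult libraries, and the other segments add up to similar heights.

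The genes whose log2 CPM followed that of Adam19 most closely over the 6 libraries were Rnf43, Cstf3, Cirbp, Slc25a45 and Ap1s1. Their Pearson correlations were 0.990 to 0.995 among 7340 candidate genes with a group mean of 20 CPM or more, of which 70 passed 0.95. The 6 libraries share 2 ages, so these values largely restate the gap between the ages. Rnf43, a ubiquitin ligase that removes Wnt receptors, had 44.4, 39.2 and 46.4 CPM in infant libraries, against 15.5, 19.6 and 14.3 CPM in adult libraries (edgeR adjusted p = 0.00147). Cirbp, an RNA-binding protein induced by cold, averaged 237 CPM in infant and 123 CPM in adult libraries (adjusted p = 0.00114), and Slc25a45, a mitochondrial carrier, 112 and 75.1 CPM (adjusted p = 0.0190). Cstf3 and Ap1s1 were not called (edgeR adjusted p = 0.406 and 0.190).

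The partners of these proteases were described from 7 lists, compiled from textbook knowledge with 157 genes, of which 61 were tested. Of these 1 was higher and 4 were lower in infant cells, which is 8.2% of the tested partners beside 3.64% of all genes. Nothing is read from this share, since the lists were chosen with earlier results of these data known. The median log2 fold change was −0.10 over the partners and −0.0017 over all genes tested.

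Among 21 matrix metalloproteinases 3 were tested, and Mmp14, a membrane-bound member that TIMP2 binds, was higher. Mmp14 had 52, 27 and 45 counts in infant libraries, against 4, 8 and 4 counts in adult libraries. All 3 infant and 0 adult libraries reached the level that the filter on low counts asks for, so Mmp14 entered the test through the group in which it is high, and its values are a description (log2 fold change 2.80 ± 0.53, edgeR adjusted p = 0.00862). The call was lost without infant replicate 1 or 3 or adult replicate 1 or 3 (adjusted p at most 0.0755). Of the matrix metalloproteinases 0 were lower with edgeR, with DESeq2, with limma-voom or at an unadjusted p under 0.05.

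Of 28 other ADAM genes 2 were tested and 0 were called with edgeR, with 1 at an unadjusted p under 0.05 and 0 with DESeq2 or limma-voom. Adam22, a protease-dead member known from neurons, had 8, 17 and 13 counts in infant libraries, against 10, 90 and 25 counts in adult libraries, so that its adult mean was carried by adult replicate 2. Adam4 averaged 6.14 ± 1.53 CPM in infant and 3.42 ± 1.25 CPM in adult libraries (edgeR adjusted p = 0.427). A count in adult replicate 2 alone was seen for 9 of the 28 genes. Among 19 secreted ADAMTS proteases 4 were tested and 0 were called with edgeR or limma-voom, while DESeq2 called Adamts6 higher and Adamts14 lower, the same 2 that had an unadjusted p under 0.05 in edgeR. Adamts10 averaged 159 ± 8.73 CPM in infant and 154 ± 26.9 CPM in adult libraries, and Adamts6 33.9 ± 7.22 CPM in infant and 19.3 ± 2.30 CPM in adult libraries (edgeR adjusted p = 0.0581).

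The genes that mature and carry ADAM10 and ADAM17 to the cell surface showed little difference. Of 22 genes 14 were tested and 0 were called with edgeR, DESeq2 or limma-voom, and 1 was higher and 2 were lower at an unadjusted p under 0.05 (median log2 fold change −0.20). Frmd8, which holds the iRhom and ADAM17 complex at the cell surface, averaged 485 ± 21.5 CPM in infant and 539 ± 26.1 CPM in adult libraries (edgeR adjusted p = 0.474). P4hb, a protein disulfide isomerase, averaged 389 ± 31.9 CPM in infant and 341 ± 21.9 CPM in adult libraries (adjusted p = 0.395). Of 9 other inhibitors of metalloproteinases or cysteine proteases 2 were tested, and 0 were called by any of the 3 tools or at an unadjusted p under 0.05. Reck, an anchored inhibitor of ADAM10, had 7.12, 3.63 and 6.28 CPM in infant libraries, against 2.42, 10.2 and 5.55 CPM in adult libraries. The means were 5.68 CPM in infant and 6.07 CPM in adult libraries, or 3.99 CPM in adult libraries without replicate 2. Cst3, which blocks cysteine proteases, averaged 52.3 ± 10.1 CPM in infant and 56.3 ± 15.8 CPM in adult libraries.

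Substrates were tested at 27 of 44 genes. With edgeR 3 were lower and 0 higher, and none was higher with DESeq2, limma-voom or an unadjusted p under 0.05. The median log2 fold change was −0.17. Icam1, an adhesion molecule, had 22.6, 22.0 and 17.4 CPM in infant libraries, against 45.1, 34.4 and 43.6 CPM in adult libraries (log2 fold change −0.99 ± 0.20, adjusted p = 0.0142). Its call was lost without infant replicate 2 or 3 or adult replicate 1 or 3 (adjusted p at most 0.0790). App, the amyloid precursor protein gene and a classical substrate of ADAM10, had 5.44, 7.50 and 5.07 CPM in infant libraries, against 28.4, 22.7 and 17.5 CPM in adult libraries (log2 fold change −1.92 ± 0.30, adjusted p = 0.00245). It was called in every alternative run, each single left-out library among them.

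Other well-known substrates were not called. Tnf averaged 29.9 ± 5.28 CPM in infant and 28.5 ± 5.65 CPM in adult libraries, and the receptor genes Tnfrsf1a and Tnfrsf1b had log2 fold changes of −0.17 ± 0.15 and −0.30 ± 0.15. Notch1, cut by ADAM10, averaged 159 ± 15.7 CPM in infant and 207 ± 5.54 CPM in adult libraries (edgeR adjusted p = 0.0806), and DESeq2 called it lower together with Lag3, an inhibitory receptor that ADAM10 and ADAM17 release. These substrates other than the called ones were picked for mention after their values were seen.

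After the cut by ADAM10, gamma-secretase cuts the remaining stump of Notch inside the membrane. Of 14 genes of this complex and of the Notch pathway 9 were tested, with 0 higher and 1 lower under edgeR, DESeq2 and limma-voom, and 1 higher at an unadjusted p under 0.05. Dtx1, a ubiquitin ligase gene induced by Notch signalling, had 29.7, 34.8 and 24.4 CPM in infant libraries, against 50.7, 61.7 and 61.1 CPM in adult libraries. The ranges were apart (log2 fold change −0.96 ± 0.18, edgeR adjusted p = 0.00885), and the call was lost without infant replicate 3 (adjusted p = 0.0524).

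**Figure D4:**
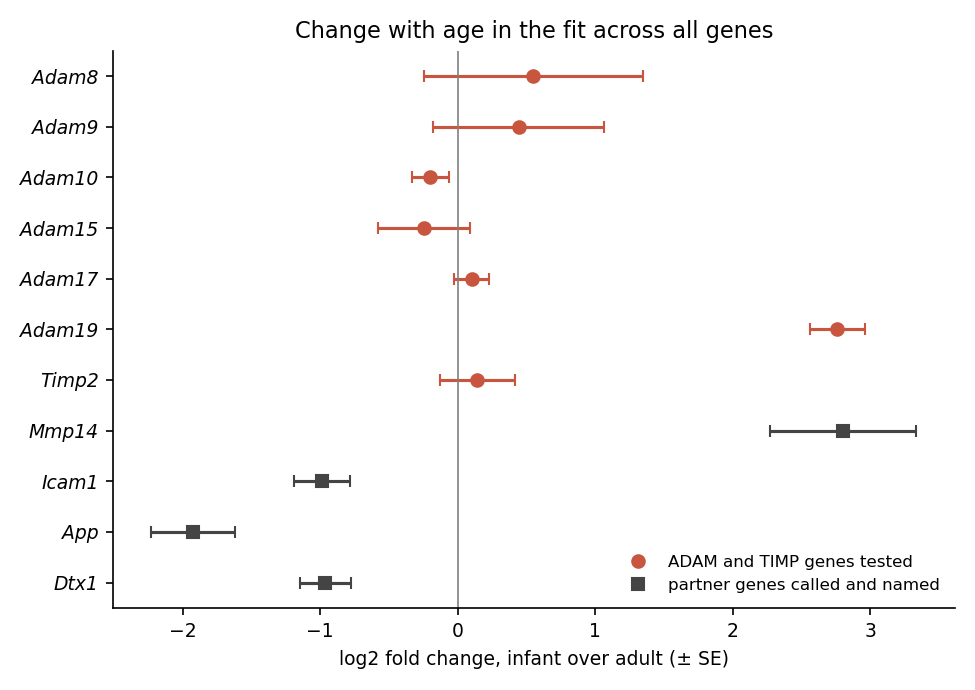
Log2 fold change of infant over adult (± SE) in the fit across all genes for the 7 ADAM and TIMP genes tested (red circles) and for 4 of the 5 partner genes called (black squares). Adam19 at 2.76 and Mmp14 at 2.80 lie to the right, App at −1.92 lies farthest to the left, and the other ADAM and TIMP genes lie between −0.24 and 0.55.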

How the data were processed

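The authors deposited a table of raw counts per gene symbol for 6 libraries, whole numbers that were not normalized. Per the submitters' processing notes, STAR 2.5.4, featureCounts and the build mm10 were used. The sources used here do not give the annotation release, the strand setting or how multi-mapped reads were handled. Per the labels' protocols, cDNA from oligo(dT) priming was amplified by PCR and cut with a transposase, which does not mark strand, and reads were paired with 25 bases each. Counts include PCR copies, so the floors (3 counts, 0.628 to 0.852 CPM) cover counting error only. The 95% intervals come from the SE of the edgeR fit, which includes the estimated spread between libraries.

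Genes were tested with edgeR 4.0.16 (R 4.3.3, quasi-likelihood F test, filterByExpr with a minimum count of 10, TMM, no covariate) on all 11681 genes that passed, with a threshold of 0.05 after Benjamini-Hochberg adjustment. Fold changes put infant over adult, and SE is the absolute value divided by the square root of F. In a simulation of this comparison over 39470 genes, of which 11868 passed the filter, 72% of 2-fold and 100% of 4-fold changes were recovered, with 7 unchanged genes called. The rates were not split by level, so they do not give the recovery for scarce genes such as Adam8 and Adam9. DESeq2 1.42.0 and limma 3.58.1 (voom) served as alternatives. Lengths and positions came from GENCODE M21 (mm10), in which all 9 genes matched by symbol. Each replicate is 1 mouse per the series. Replicate pairs differed beyond counting noise (chi-square over its degrees of freedom, 5.07 to 13.0).

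The members, lists and tests were chosen with earlier results of these data known. Named were the 9 genes, each called partner, the 2 partners of highest level in lists with no call, and the 5 genes most like each called member. A called gene is left out of the text and not reported here.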

Additional observations from a re-analysis of the deposited data

How the results depend on the processing

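Adam19 kept its direction and its call under all 15 alternatives (log2 fold change 2.58 to 3.09), and 1 member higher and 0 lower was the count in each, leaving out single libraries included (1 to 1 and 0 to 0). Over the log2 fold changes of 12 genes there were 178 values under alternatives, of which 161 kept sign and call, 14 lost the call and 3 reversed, none of them a called gene. Without 1 library Timp2 ran from −0.047 to 0.36 and Adam8 from −0.037 to 1.43. Genes called over the whole table ran from 55 to 217 higher and 84 to 271 lower without 1 library, against 178 and 247 with all, and partners called ran from 0 to 2 higher and 1 to 4 lower. DESeq2 called 268 genes higher and, of the partners, 2 higher and 7 lower. With no filter 2 partners were higher, and the median log2 fold change of all genes was −0.84. That run held 39470 genes, of which 11689 had counts in adult replicate 2 alone. The cause of these shifts was not tested. With the replicate number as a replicate block, 129 genes were higher and 197 lower and Adam19 was at 2.79. Same-numbered libraries did not deviate together (correlations −0.08 to −0.01), and neither did differently numbered ones (−0.02 to 0.06). Such values, from 3 libraries per group, cannot show whether same-numbered mice were handled together. Adam8 and Adam9 did not pass the stricter filter. Depth limits Adam8, Adam9, Timp1 and Timp3, which had at most 26 counts in any library.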
